A study of Mus musculus with 22 samples.

Results

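Fibronectin and 8 matricellular proteins were followed in mouse pluripotent stem cells and in the osteoblast cultures grown from them. The members were chosen by gene symbol: Fn1, Postn, Tgfbi, Tnc, Thbs1, Thbs2, Ctgf, Cyr61 and Sparc. All 9 were listed in each of the 3 comparison tables analysed, among 18632 genes that the tables share. The groups of cells behind these tables all carry Col2.3GFP, a green fluorescent reporter driven by a fragment of a type I collagen promoter. They are iPSC-OB (2 labelled samples), osteoblast cultures grown from induced pluripotent stem cells of passage 10 to 20, with undifferentiated iPSC of the same passages (2) as their reference. The others are GFP-positive cells sorted from ESC osteoblast cultures (sorted ESC-OB GFP+, 3), unsorted ESC-OB of passage 20 to 30 (3) and undifferentiated ESC of the same passages (3). Per the labels' protocols, differentiation ran for 35 to 40 days and began with embryoid bodies, free-floating aggregates kept for 6 days. In their medium, without LIF or the inhibitors PD0325901 (of MEK) and CHIR99021 (of GSK3), retinoic acid at 0.1 µM was added on day 3 and removed on day 5. They were then moved to a medium that favours osteogenesis. Stem cells had been grown with or without a feeder layer of mouse embryonic fibroblasts, and the sources used here do not say which samples had one. The labels do not say that the replicates were separate cultures, so the p-values measure only the spread between these libraries.

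Fibronectin is a large secreted glycoprotein that cells pull into fibrils through integrins, and newly made collagen is laid down along these fibrils. Matricellular proteins are also secreted into the matrix, but they act mainly as adjusters of adhesion, growth factor access and matrix assembly and less as structural scaffold. In bone, SPARC, also called osteonectin, is one of the abundant non-collagenous proteins, and periostin marks the periosteum and other tissues under mechanical load. Thrombospondins bind many matrix and cell surface partners, tenascin-C is typical of embryonic and healing tissue, and the CCN proteins encoded by Ctgf and Cyr61 are early targets of TGF-beta signalling and of the Hippo pathway effectors YAP and TAZ with their TEAD partners.

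The sequences just upstream of 3 members with a promoter window are shown: Tnc and Postn, whose changes differ most between the cell sources among members that have one, and Cyr61, a textbook TEAD target. RefSeq promoter windows (build GRCm38.p6) were matched for 6 of the 9 members, in 8 windows. Fn1, Thbs1 and Ctgf had no window here. Postn and Tnc have 2 annotated starts each, and the window of 1 start is printed. Each run gives the 250 bases before the annotated start, 5′ to 3′ on the gene's strand, and the capitals mark matches to the TEAD motif GGAATG or the TATA box TATAAA, searched on both strands.
Cyr61, chr3:145649986-145650235, minus strand: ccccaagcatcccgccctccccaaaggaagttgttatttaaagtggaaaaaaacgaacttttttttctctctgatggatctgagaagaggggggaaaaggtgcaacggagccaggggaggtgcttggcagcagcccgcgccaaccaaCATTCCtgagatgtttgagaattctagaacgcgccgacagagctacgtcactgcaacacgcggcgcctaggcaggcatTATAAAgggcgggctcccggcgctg
Tnc, chr4:64047016-64047265, minus strand: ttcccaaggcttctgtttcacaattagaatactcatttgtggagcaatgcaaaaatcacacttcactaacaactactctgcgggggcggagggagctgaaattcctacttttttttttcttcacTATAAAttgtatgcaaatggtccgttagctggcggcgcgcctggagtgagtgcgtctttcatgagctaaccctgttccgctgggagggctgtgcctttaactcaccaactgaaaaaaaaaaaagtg
Postn, chr3:54360857-54361106, plus strand: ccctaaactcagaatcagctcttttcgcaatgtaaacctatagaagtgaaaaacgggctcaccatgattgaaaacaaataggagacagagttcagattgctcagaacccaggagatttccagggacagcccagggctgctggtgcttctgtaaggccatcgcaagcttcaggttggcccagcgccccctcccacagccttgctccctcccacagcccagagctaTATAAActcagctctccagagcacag
Counted from the start, with -1 the last base before it, the Cyr61 window held a TEAD match at -103 to -98 and a TATA box at -25 to -20. The Postn window held a TATAAA match at -26 to -21, and the Tnc window one at -126 to -121. The Postn window that is not printed held none of the motifs searched. The overlapping second Tnc window held the same TATAAA match, at -205 to -200 from its own start. Nearer that start it reads tatataa, which the pattern TATAAA does not match. Among 32851 windows of the same length, 12.6% held the TEAD motif and 12.4% the TATA box. The AP-1 motif TGANTCA, the CRE motif TGACGTCA, the SMAD motif GTCTAGAC and the SRF CArG box, which read the same on both strands as patterns, were found in none of the 8 windows, against 6.75%, 1.55%, 0.167% and 1.47% of all windows. None of the matches overlapped another. These matches are letters in a window and say nothing of binding in these cells.

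The tables hold group comparisons with 0 columns of values per sample, so levels are given per group, as reads per 1 M reads (CPM) estimated from the authors' base means and fold changes. The range behind each level comes from moving the folds by 1 standard error, and it leaves out the error of the base mean itself. Levels set across the iPSC and ESC fits, which were normalised separately, carry no test. The depths read from the lowest base means were 9.59 to 16.8 M reads per library for iPSC-OB, 9.91 to 12.4 M for iPSC, 21.2 to 28.5 M for sorted ESC-OB GFP+, 6.37 to 10.9 M for ESC-OB and 4.25 to 18.5 M for ESC. By that reading the iPSC side held 3 libraries, against 2 in the labels. If so, every iPSC base mean and fold also holds the reads of a library that the labels do not name. The level ranges below take 3 iPSC libraries as given and leave out this doubt. Pou5f1, the core pluripotency factor, was at -7.97, -9.78 and -8.81 on the log2 scale in the authors' deposited tables for iPSC-OB, sorted ESC-OB GFP+ and ESC-OB, so a positive value was read as higher in the differentiated cells. A marker list for osteoblasts held 2816 CPM in iPSC-OB against 857 CPM in iPSC, and 10647 CPM in sorted ESC-OB GFP+ and 5190 CPM in ESC-OB against 340.0 CPM in ESC. Col1a1 and Col1a2, the type I collagen genes, carried most of the sums in the osteoblast groups and in iPSC (410 and 319 CPM there). The sum in ESC was mostly Alpl, which stem cells also express, and Bglap, the osteocalcin gene of mature osteoblasts, lay under the floor of 3 reads over the group there (0.108 CPM). Bglap also stayed low in the osteoblast groups, at 1.14 CPM in iPSC-OB, 0.509 CPM in sorted ESC-OB GFP+ and 0.821 CPM in ESC-OB. Alpl fell in every comparison, to 11.2 CPM in iPSC-OB, 40.4 CPM in sorted ESC-OB GFP+ and 10.7 CPM in ESC-OB. Sp7, another listed gene, was at 0.610, 2.21 and 0.729 CPM in these groups, and its rise passed only in sorted cells.

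In ESC-OB against ESC, 8 of the 9 members rose, none fell, and Fn1 did not pass an adjusted p of 0.05, where 38.6% of the 18208 genes tested rose and 31.0% fell. Their median log2 change was 6.14, beside 0.26 for all genes tested. The table on the sorted cells shares its ESC libraries and its fit with this one, so the pair are not independent. Sorted ESC-OB GFP+ against ESC had the same 8 members rising (background 39.1% of 18588) and Fn1 falling (background of falls 32.4%), with a median of 6.32 beside 0.28. In iPSC-OB against iPSC, 6 members rose (background 26.1% of 17579), Tnc fell (background of falls 23.1%), and Fn1 and Tgfbi did not pass. The median there was 1.66, beside 0.15 for all genes tested. In these bulk libraries, more cells of a type and more RNA per cell cannot be told apart.

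**Figure D1:**
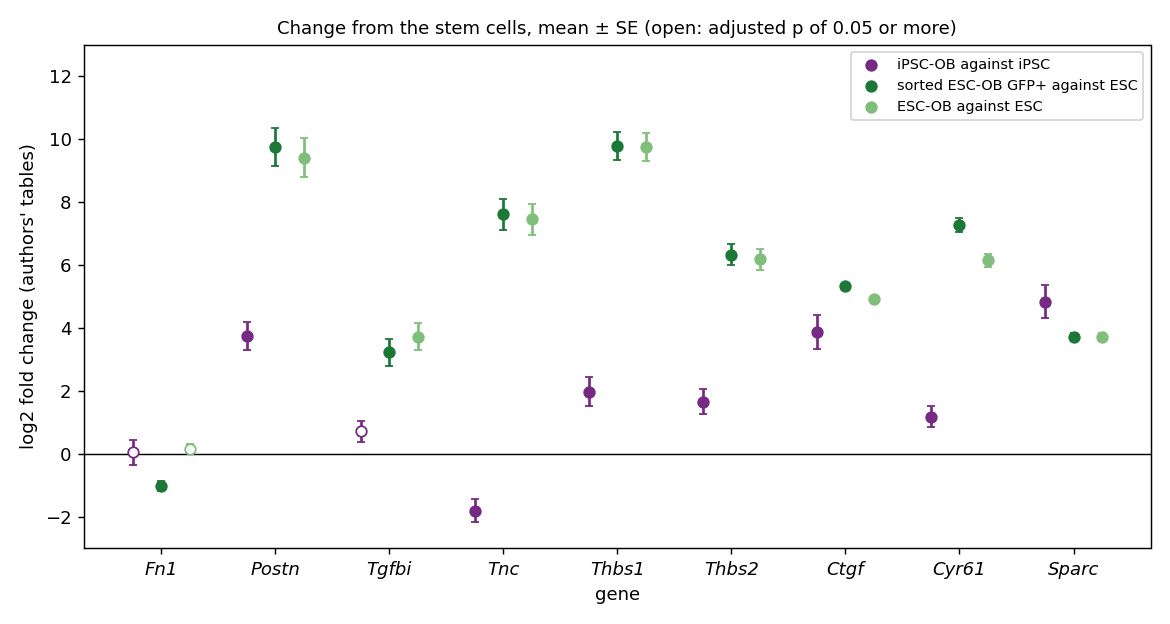
Log2 fold change of each member in the authors' tables, with iPSC-OB against iPSC in purple, sorted ESC-OB GFP+ against ESC in dark green and ESC-OB against ESC in light green. Bars are the authors' standard errors, and open points did not pass an adjusted p of 0.05. Fn1 stays near 0 or below it, Tnc is at -1.81 in iPSC-OB and at 7.61 and 7.45 in the ESC-derived cells, and Sparc lies between 3.71 and 4.84 in all 3.

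Fibronectin was already high in the stem cells. Fn1 was estimated at 2430 CPM in iPSC-OB (range 2048 to 2832) and 2347 CPM in iPSC (2080 to 2602), and the ranges overlap. In the ESC fit it was at 1015 CPM in sorted ESC-OB GFP+ (880.1 to 1163) and 2307 CPM in ESC-OB (2110 to 2504), against 2061 CPM in ESC (1920 to 2205). The sorted cells stand alone at the low end, and the ranges of ESC-OB and ESC overlap. The authors' deposited table gives a change of -1.02 ± 0.16 for the sorted cells against ESC (a standard error follows each ± sign, adjusted p = 8.33e-10). For ESC-OB against ESC the authors' deposited table has 0.16 ± 0.16, with an interval at 95% of -0.15 to 0.48 (adjusted p = 0.370). For iPSC-OB against iPSC it has 0.05 ± 0.40 in the authors' deposited table, with an interval of -0.72 to 0.82 (adjusted p = 0.929). The median change, over genes whose base mean reached 10, was 0.06 in iPSC-OB, 0.21 in sorted cells and 0.19 in ESC-OB, and re-centring on it turned the sign of both small Fn1 changes.

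Periostin and TGFBI are relatives built from fasciclin domains, which bind integrins and other matrix proteins. Postn was at 387 CPM in iPSC-OB (374 to 397) against 28.9 CPM in iPSC (22.03 to 37.6). It was at 204 CPM in sorted ESC-OB GFP+ (129 to 272) and 161 CPM in ESC-OB (92.5 to 236) against 0.236 CPM in ESC (0.155 to 0.358). Every osteoblast group is above its own stem cells, and ESC stand far below iPSC. The rise in the authors' deposited tables was 3.74 ± 0.43 in iPSC-OB, 9.76 ± 0.61 in sorted cells and 9.41 ± 0.61 in ESC-OB (adjusted p = 6.36e-17, 3.27e-57 and 4.49e-53). By size, the Postn rise stood at place 144 from the top of 18208 genes in ESC-OB against ESC. Tgfbi was at 13.9 CPM in iPSC-OB (12.3 to 15.4) against 8.47 CPM in iPSC (7.43 to 9.53). In the ESC fit it was at 40.2 CPM in sorted cells (27.6 to 54.3) and 57.0 CPM in ESC-OB (42.9 to 70.0), against 4.32 CPM in ESC (3.26 to 5.70). Tgfbi rose by 3.22 ± 0.42 in sorted cells and 3.72 ± 0.42 in ESC-OB in the authors' deposited tables (adjusted p = 6.50e-14 and 4.99e-18). Its iPSC-OB value of 0.71 ± 0.35 in the authors' deposited table missed the threshold (adjusted p = 0.0754), with an interval of 0.03 to 1.39.

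Tenascin-C is a multi-armed glycoprotein that loosens cell attachment to fibronectin. Tnc was at 91.7 CPM in iPSC-OB (74.1 to 113) against 321 CPM in iPSC (307 to 333). It was at 70.1 CPM in sorted ESC-OB GFP+ (47.8 to 91.6) and 62.7 CPM in ESC-OB (41.3 to 85.0) against 0.358 CPM in ESC (0.254 to 0.504). The iPSC level is thus the highest of the 5 groups and the ESC level the lowest, while the osteoblast groups have overlapping ranges. Tnc fell by 1.81 ± 0.36 in iPSC-OB and rose by 7.61 ± 0.49 in sorted cells and 7.45 ± 0.50 in ESC-OB in the authors' deposited tables (adjusted p = 2.55e-06, 2.41e-52 and 7.32e-50).

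Thrombospondin-1 and thrombospondin-2 are trimeric glycoproteins, and the first can activate latent TGF-beta. Thbs1 was at 1739 CPM in iPSC-OB (1574 to 1883) against 442 CPM in iPSC (346 to 552). It was at 1496 CPM in sorted ESC-OB GFP+ (1061 to 1928) and 1455 CPM in ESC-OB (1023 to 1890) against 1.69 CPM in ESC (1.25 to 2.29). All osteoblast groups overlap near the same level, while the stem cell groups lie far apart. Thbs1 rose by 1.98 ± 0.47 in iPSC-OB, 9.79 ± 0.44 in sorted cells and 9.75 ± 0.44 in ESC-OB in the authors' deposited tables (adjusted p = 9.29e-05, 2.16e-109 and 4.39e-108). Thbs2 was at 132 CPM in iPSC-OB (119.6 to 143) against 41.8 CPM in iPSC (34.3 to 50.0). It was at 165 CPM in sorted cells (129 to 199.9) and 149.8 CPM in ESC-OB (115 to 186) against 2.06 CPM in ESC (1.64 to 2.59). Thbs2 rose by 1.66 ± 0.40 in iPSC-OB, 6.32 ± 0.33 in sorted cells and 6.18 ± 0.33 in ESC-OB in the authors' deposited tables (adjusted p = 1.42e-04, 6.60e-79 and 4.45e-75).

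The CCN genes Ctgf and Cyr61 encode cysteine-rich secreted proteins that bind integrins and proteoglycans. Ctgf was at 2506 CPM in iPSC-OB (2402 to 2582) against 171 CPM in iPSC (120.2 to 240.1). It was at 1985 CPM in sorted ESC-OB GFP+ (1848 to 2119) and 1501 CPM in ESC-OB (1367 to 1637) against 49.7 CPM in ESC (46.0 to 53.8). The osteoblast groups do not overlap the stem cells, and the sorted range lies above the unsorted one. Ctgf rose by 3.87 ± 0.55 in iPSC-OB, 5.32 ± 0.11 in sorted cells and 4.92 ± 0.11 in ESC-OB in the authors' deposited tables (adjusted p = 2.34e-11 and, for both ESC tables, listed as 0). Cyr61 was at 521 CPM in iPSC-OB (471 to 569) against 229 CPM in iPSC (197 to 263). It was at 3958 CPM in sorted cells (3573 to 4304) and 1811 CPM in ESC-OB (1466 to 2195) against 25.6 CPM in ESC (22.1 to 29.7). Here the osteoblast groups themselves are far apart, with the sorted cells highest and iPSC-OB lowest. Cyr61 rose by 1.19 ± 0.34 in iPSC-OB, 7.27 ± 0.21 in sorted cells and 6.14 ± 0.21 in ESC-OB in the authors' deposited tables (adjusted p = 0.00167, 9.95e-254 and 8.70e-181).

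SPARC binds collagen and calcium and helps procollagen leave the cell surface. Sparc was at 9614 CPM in iPSC-OB (9412 to 9760) against 336 CPM in iPSC (239 to 470.5). It was at 7543 CPM in sorted ESC-OB GFP+ (6884 to 8204) and 7491 CPM in ESC-OB (6833 to 8152) against 571 CPM in ESC (524 to 621). Both ESC-derived osteoblast groups overlap almost fully. Sparc rose by 4.84 ± 0.52 in iPSC-OB, 3.72 ± 0.13 in sorted cells and 3.71 ± 0.13 in ESC-OB in the authors' deposited tables (adjusted p = 1.74e-19, 8.13e-187 and 2.60e-185). By size, its place in iPSC-OB was 303 from the top of 17579 genes, and in ESC-OB 2562 of 18208. All 7 genes listed as markers of extraembryonic endoderm, a tissue that secretes much SPARC and basement membrane, rose in the 3 comparisons. They summed to 30581 CPM in iPSC-OB against 183 CPM in iPSC, and to 9543 CPM in sorted cells and 19848 CPM in ESC-OB against 158 CPM in ESC. The basement membrane genes Col4a1 and Lama1 carried most of these sums, with 17728 and 10634 CPM in iPSC-OB and 12476 and 6819 CPM in ESC-OB, and Afp was at 1626 CPM in iPSC-OB and 15.9 CPM in ESC-OB. The sum was lower in sorted cells than in ESC-OB, while the Sparc levels there overlap. The part of such cells in the Sparc rise was not tested.

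**Figure D2:**
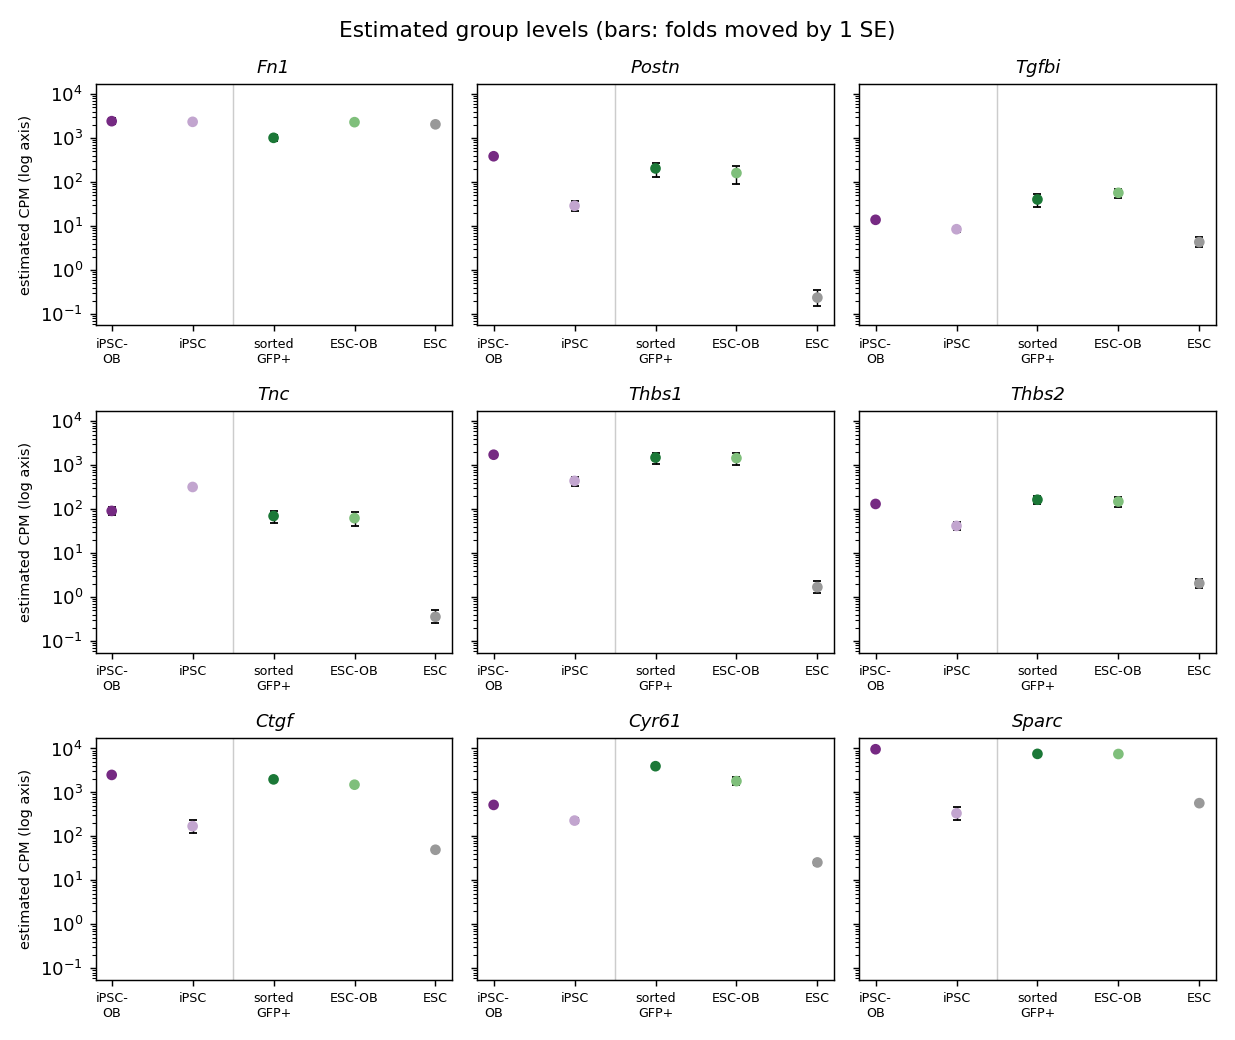
Estimated level of each member in CPM on a log axis, for iPSC-OB, iPSC, sorted ESC-OB GFP+, ESC-OB and ESC from left to right, with the line parting the separately normalised fits. Bars show the range when the folds are moved by 1 standard error. Thbs1 and Tnc stand at 442 and 321 CPM in iPSC against 1.69 and 0.358 CPM in ESC, while their osteoblast levels lie close together.

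Levels of different genes were compared only per kilobase of exon, with exon lengths from GENCODE M21 (GRCm38), which may differ from the gene models the authors counted on. On that scale Sparc was the highest member in every osteoblast group, at 3533 CPM per kb in iPSC-OB, 2772 in sorted ESC-OB GFP+ and 2753 in ESC-OB. Second came Ctgf in iPSC-OB (903 CPM per kb) and Cyr61 in sorted cells (1960 CPM per kb) and ESC-OB (897 CPM per kb). Fn1 had the highest estimate in both stem cell groups, at 277 CPM per kb in iPSC and 243 CPM per kb in ESC. Sparc followed at 209.8 CPM per kb in ESC, where its range and that of Fn1 overlap. In iPSC, Sparc (123.5 CPM per kb, range 87.7 to 173) and Cyr61 (113 CPM per kb, range 97.7 to 130.05) overlap, and their order turns when 2 iPSC libraries are taken, at 100.5 and 104.7 CPM per kb. Annotated genes overlap exons of Ctgf (Gm15270, 636 bases), Fn1 (Apol7d, 227 bases) and Thbs1 (Gm29233, 187 bases) on the opposite strand. The sources used here do not say whether the authors' counts used strand, so such reads cannot be told apart.

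Cells sorted for the collagen reporter were set against whole unsorted cultures, as no GFP-negative cells are among the groups. Only the sorted group went through sorting, so its handling and its reporter status cannot be told apart. The difference between the sorted and unsorted changes cancels the ESC level, and its error was taken from both deposited standard errors as if they were independent, which overstates it because the ESC libraries are shared. Of the 9 members, Cyr61 was higher (10.7% of 19781 genes were) and Fn1 was lower (12.1% were). The number of members called is thus near the share of all genes. Cyr61 differed by 1.13 ± 0.30, a 2.19-fold higher level in sorted cells (normal test with Benjamini-Hochberg adjustment over all genes, adjusted p = 0.00143). Fn1 differed by -1.18 ± 0.23, a 2.27-fold lower level in sorted cells (adjusted p = 4.00e-06). Ctgf, the relative of Cyr61, differed by 0.40 ± 0.16 and missed the threshold (adjusted p = 0.0549). It passed when only genes with a base mean of at least 100 were tested (adjusted p = 0.0330), and when part of the error was taken as shared (adjusted p = 0.00184). The other 6 differences lay between -0.50 ± 0.60 for Tgfbi and 0.35 ± 0.86 for Postn. The interval for Sparc, -0.34 to 0.36, was the narrowest of these, and that for Postn, -1.33 to 2.03, the widest. In the same libraries the osteoblast list summed to 10647 CPM in sorted cells against 5190 CPM in ESC-OB, but none of its 8 genes passed the normal test of this difference after adjustment, with 2 (Col1a1 and Ibsp) at an unadjusted p under 0.05. Runx2 stood at 16.0 CPM in sorted cells against 25.2 CPM in ESC-OB. The list of simple epithelium, whose keratins are not osteoblast genes, summed to 3763 CPM in sorted cells against 1782 CPM in ESC-OB, with 4 of 5 genes higher. The extraembryonic endoderm list summed to 9543 CPM in sorted cells against 19848 CPM in ESC-OB, with 1 of 7 genes, Lama1, lower. Endothelial markers summed to 75.2 CPM in sorted cells against 215 CPM in ESC-OB, with 1 of 5 genes, Cdh5, lower. Fibroblast and feeder markers summed to 4075 CPM in sorted cells against 2712 CPM in ESC-OB, with 2 of 7 genes, Pdgfra and Thy1, lower and none higher. Smooth muscle markers summed to 898 CPM in sorted cells against 441 CPM in ESC-OB, with none of the 5 genes called. The part of these cell types in the Cyr61 and Fn1 differences was not tested.

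The difference between the iPSC-OB and ESC-OB changes set the cell sources side by side under the same protocol. Cell source cannot be told apart from passage, 10 to 20 for iPSC and 20 to 30 for ESC. The folds come from separate fits, whose standard errors level off at 1.29 for iPSC and 1.89 for ESC. Unequal shrinkage of the folds towards 0 is not in the error used, and its part in the differences was not tested. Of the 9 members, 6 had a lower change from iPSC (17.2% of 18632 genes did) and none a higher one (11.0% did). Their median difference was -4.52, beside -0.07 for all genes. Tnc differed by -9.26 ± 0.61, Thbs1 by -7.77 ± 0.64 and Postn by -5.67 ± 0.74 (normal test with Benjamini-Hochberg adjustment, adjusted p = 1.12e-48, 1.88e-31 and 1.18e-12). Cyr61 differed by -4.96 ± 0.40, Thbs2 by -4.52 ± 0.52 and Tgfbi by -3.01 ± 0.54 (adjusted p = 3.61e-32, 3.76e-16 and 5.55e-07). The 3 members whose difference missed the threshold were Sparc (1.12 ± 0.53, interval 0.08 to 2.16, adjusted p = 0.101), Ctgf (-1.04 ± 0.56, interval -2.14 to 0.06, adjusted p = 0.162) and Fn1 (-0.11 ± 0.43, interval -0.95 to 0.72, adjusted p = 0.886). These intervals still allow differences of about 1 log2 unit or more.

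**Figure D3:**
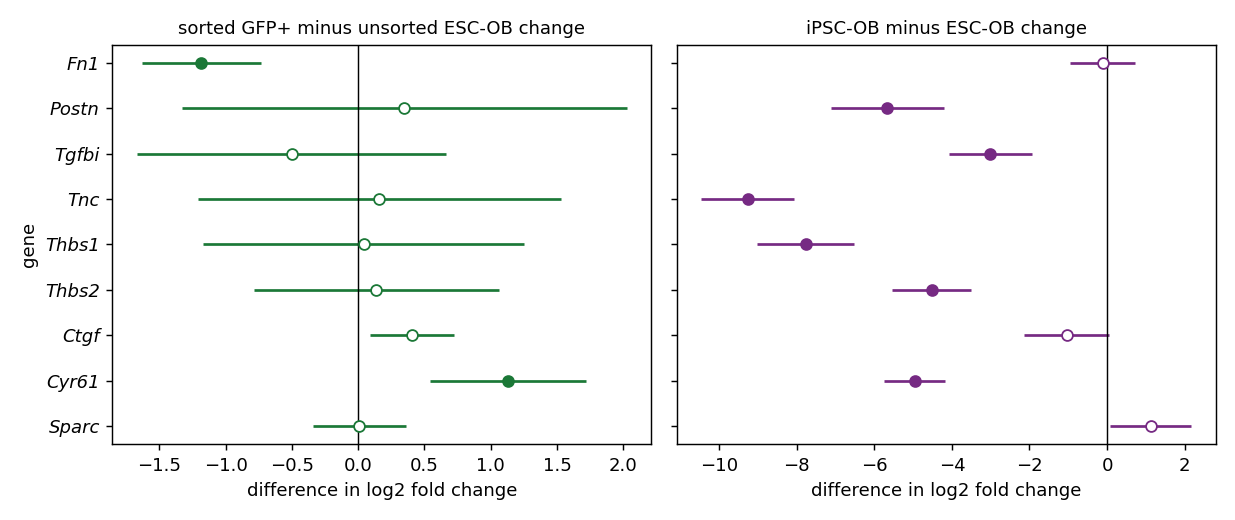
Difference in log2 fold change for each member, sorted GFP+ minus unsorted ESC-OB on the left and iPSC-OB minus ESC-OB on the right, with intervals at 95%. Filled points passed an adjusted p of 0.05. On the left only Fn1 (-1.18) and Cyr61 (1.13) passed, while the intervals of Postn, Tnc and Thbs1 reach past the Cyr61 value. Between the cell sources Tnc (-9.26) lies farthest from 0.

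For Tnc, Thbs1, Postn and Thbs2 the estimated levels lay farther apart between the stem cells than between the osteoblast cultures. The levels were built from the same deposited folds, so the stem cell and osteoblast ratios together restate the differences above by construction. Unequal shrinkage of the folds would enter these levels too, and its part was not tested. The iPSC level was 897-fold the ESC level for Tnc, 261-fold for Thbs1, 123-fold for Postn and 20.3-fold for Thbs2. A ratio of at least 10 held for these 4 members and for 3.50% of the 9817 genes with a base mean of at least 100 in both fits, whose median ratio was 0.981. It was 8.95 for Cyr61, 3.44 for Ctgf, 1.96 for Tgfbi, 1.14 for Fn1 and 0.589 for Sparc. Between the osteoblast cultures the ratio of iPSC-OB to ESC-OB was much nearer to 1, at 1.46 for Tnc, 1.20 for Thbs1, 2.41 for Postn and 0.881 for Thbs2. The members that stood apart there were Tgfbi (0.243) and Cyr61 (0.288), both lower in iPSC-OB. Fibroblast and feeder markers moved the same way: the 7 listed summed to 120.6 CPM in iPSC against 14.6 CPM in ESC, with Col3a1 at 65.9 against 1.15 CPM, and with Dcn and Fap under the floor in ESC only. Smooth muscle markers summed to 387 CPM in iPSC against 16.0 CPM in ESC, and pluripotency markers to 1826 CPM in iPSC against 3929 CPM in ESC. Simple epithelium markers summed to 1249 CPM in iPSC against 532 CPM in ESC, with Krt8 at 159 against 3.96 CPM. Osteoblast markers summed to 857 CPM in iPSC against 340.0 CPM in ESC, with Col1a1 at 410 against 11.0 CPM. Alpl was lower in iPSC, at 115 against 327 CPM, and so was the endothelial sum, at 10.3 against 12.7 CPM. The part of such cells in the iPSC levels was not tested.

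The other genes of these families were counted list by list, against the shares of all genes given for each comparison above. Of the other CCN genes, 3 of 4 rose and Wisp3 fell in ESC-OB (median 5.49), 3 rose in sorted cells (median 5.98), and 2 rose in iPSC-OB (median 1.40). Wisp1, which promotes osteoblast differentiation, rose by 5.67 ± 0.42 in ESC-OB in the authors' deposited table and was at 0.24 ± 0.64 in iPSC-OB. Wisp2 reached 28.5 CPM in ESC-OB and was under the floor in ESC. Wisp3 was at only 0.717 CPM in ESC and under the floor in ESC-OB, so its fall rests on few reads. All 3 other thrombospondin genes rose in ESC-OB and in sorted cells (medians 3.90 and 5.24), and in iPSC-OB 2 rose and 1 fell (median 1.54). Thbs4 and Comp, the cartilage oligomeric matrix protein, rose by 6.41 ± 1.12 and 3.90 ± 0.60 in ESC-OB in the authors' deposited table. All 3 other tenascin genes rose in ESC-OB (median 7.01, or 5.41 after raising low levels to the floor) and in sorted cells (5.61, or 5.60), and 2 rose in iPSC-OB (3.86). Tnn and Tnr were under the floor in ESC, and Tnr was at only 0.385 CPM in ESC-OB. Tnxb, a tenascin of loose connective tissue, rose by 7.43 ± 0.68 in ESC-OB in the authors' deposited table. Of 7 other SPARC family genes 5 rose in ESC-OB (median 3.44), 4 rose and Smoc1 fell in sorted cells (3.24), and 5 rose in iPSC-OB (1.42). Smoc2 and Spock1, calcium-binding relatives of SPARC, rose by 9.32 ± 0.72 and 8.75 ± 0.54 in ESC-OB in the authors' deposited table. Of the 2 other fasciclin-domain genes Stab1, a scavenger receptor that takes up SPARC, rose in ESC-OB and sorted cells (medians of the pair 2.68 and 2.53), and neither passed in iPSC-OB (1.66).

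Receptors and adhesion partners were counted against the same background, with 26.1% of all genes rising in iPSC-OB, 39.1% in sorted cells and 38.6% in ESC-OB. Of 16 receptor genes, 14 rose in ESC-OB and in sorted cells and 11 in iPSC-OB, with none falling (medians 2.82, 2.83 and 1.50). Cd36, a thrombospondin receptor, reached 95.5 CPM in ESC-OB, and Itgb6, an epithelial integrin chain that binds fibronectin, 50.03 CPM, and both were under the floor in ESC, so no fold is given. Of 13 genes that link integrins to actin or process fibronectin, 10 rose in ESC-OB, 9 rose and Ptk2 fell in sorted cells, and 9 rose in iPSC-OB (medians 1.55, 1.27 and 0.88). Bmp1, a protease that trims procollagen, and Zyx, a focal adhesion protein, rose by 6.05 ± 0.31 and 6.03 ± 0.21 in ESC-OB in the authors' deposited table.

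Inputs of the TGF-beta, Hippo and SRF pathways were mixed. Of 17 such genes 13 rose and 2 fell in ESC-OB (median 0.86), 8 rose and 5 fell in sorted cells (0.17), and 10 rose and 2 fell in iPSC-OB (0.71). Of all genes tested, 38.6% rose and 31.0% fell in ESC-OB, with a median of 0.26. The shares were 39.1% and 32.4% in sorted cells (median 0.28), and 26.1% and 23.1% in iPSC-OB (median 0.15). The counts in sorted cells are thus near the shares of all genes. Tgfb2, a TGF-beta ligand, rose by 8.30 ± 0.59 in ESC-OB in the authors' deposited table, and Tgfb3 reached 57.7 CPM there while under the floor in ESC. Tead2, a partner of YAP and TAZ, fell by 1.38 ± 0.15 in ESC-OB in the authors' deposited table. In the sorted minus unsorted difference, 10 of the 17 were lower and 1 was higher (backgrounds 12.1% and 10.7%), with a median of -0.74 beside 0.06 for all genes. Of 13 other target genes of these pathways 12 rose in ESC-OB, 10 in sorted cells and 10 in iPSC-OB, where 1 fell (medians 4.25, 4.79 and 1.37). Ankrd1, a YAP target, reached 142 CPM in ESC-OB and was under the floor in ESC, and Acta2, smooth muscle actin, rose by 8.78 ± 0.57 in the authors' deposited table. In the iPSC-OB minus ESC-OB difference 9 of these 13 were lower and none higher (backgrounds 17.2% and 11.0%), with a median of -3.16 beside -0.07 for all genes.

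**Figure D4:**
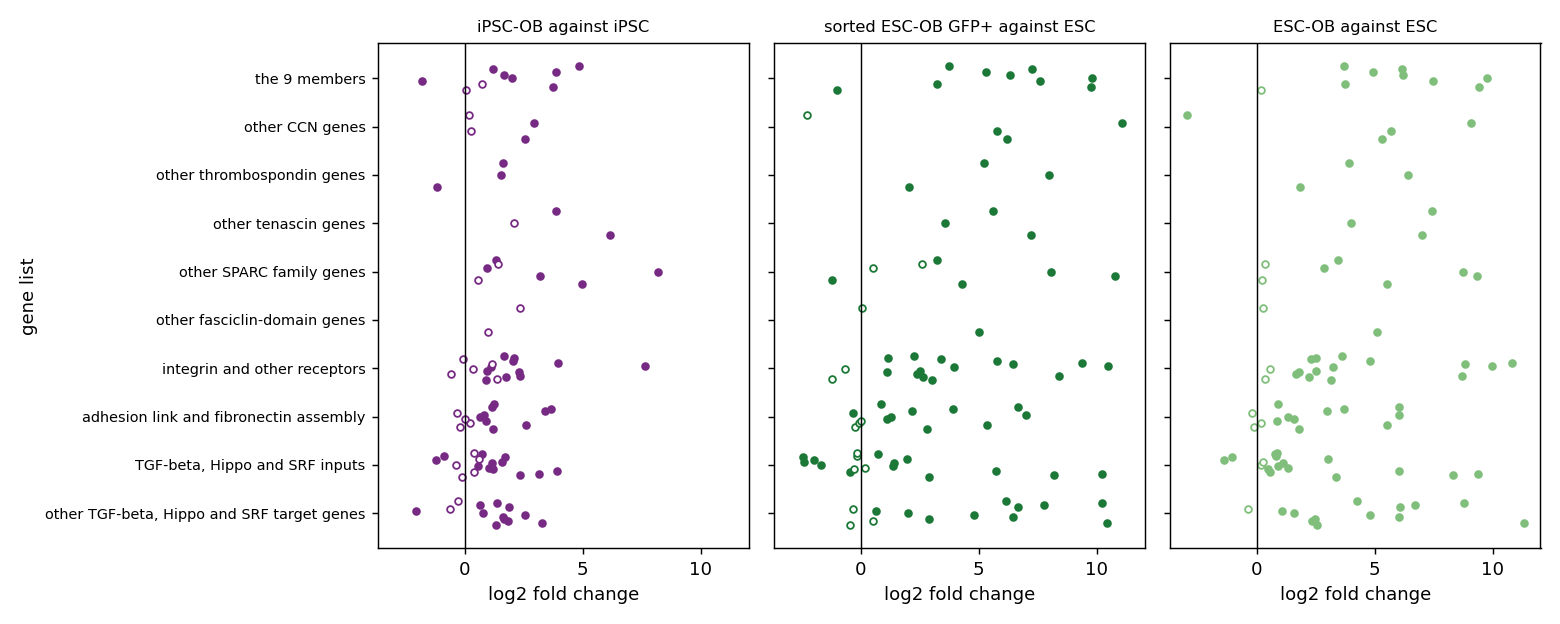
Log2 fold change of every gene in the companion lists and of the 9 members, 1 panel for each comparison (iPSC-OB, sorted ESC-OB GFP+ and ESC-OB, each against its stem cells). Filled points passed an adjusted p of 0.05. Most points lie right of 0 in every panel, nearer to 0 for iPSC-OB, whose folds come from a separate fit, and the pathway inputs include falls.

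For each member the gene with the most similar pattern was the one nearest by Euclidean distance over the 3 log2 changes, among 9817 genes with a base mean of at least 100 in both fits. These were Dync1i2 for Fn1 (distance 0.109), Megf6 for Cyr61 (0.133), Axl for Thbs2 (0.212), Mettl7a1 for Tgfbi (0.329), Scel for Postn (0.330), Epha1 for Tnc (0.351), Eps8l2 for Ctgf (0.358), Slc13a4 for Sparc (0.368) and Sdpr for Thbs1 (0.432). With 3 values, of which 2 share the ESC libraries, this describes likeness and nothing more.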

How the data were processed

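The 3 deposited tables hold the authors' comparisons. Per the submitters' processing notes STAR 2.4.2a, DESeq2, R 3.2.2 and the build mm9 were used, with no roles given; the counting step and filters are not given in the sources used here. Per the file headers, the columns are the base mean (a signal, read as counts over size factors averaged over libraries), the log2 fold change and its standard error, the score (the test statistic) and raw and adjusted p-values. The authors' score equals fold over error, and adjusting the deposited p-values by Benjamini-Hochberg gave back their adjusted ones. Standard errors level off at 1.89 in the ESC and 1.29 in the iPSC table, as they do when folds are shrunk towards 0. The ESC tables share base means, hence 1 fit.

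Values of 1 read per library were found as the numbers whose whole multiples sum to each of 2040 (ESC fit) and 1456 (iPSC fit) base means under 1 (tolerance 1e-08). They gave 9 and 5 libraries, with sides read from the fold signs of genes whose reads lie in 1 library (for 1 ESC library, in it and 1 other). CPM was scaled to the summed base means without Rn45s. Differences of folds were divided by the root of the summed squared errors and adjusted over all shared genes. Both steps were run on simulated data. For the differences these had independent errors of the deposited size, with neither the shared ESC libraries nor the shrinkage of folds. Python 3.11.15, pandas 2.3.3, numpy 2.4.6 and scipy 1.17.1 were used. Named companions were the 2 largest rises and the largest fall per list in ESC-OB with a base mean of at least 100. The calvarial cultures and the cells isolated from bone were not analysed here. Members, lists and tests were chosen with earlier results of these data known. Alternatives were a stricter threshold, a fold null, re-centring, other filters and other scalings.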

Additional observations from a re-analysis of the deposited data

Results flagged for a closer look

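Of the 9 members, 6 were singled out because the same differentiation gave changes that differ between the cell sources by a test of the difference itself. The iPSC-OB minus ESC-OB difference on the log2 scale was -9.26 for Tnc, -7.77 for Thbs1, -5.67 for Postn, -4.96 for Cyr61, -4.52 for Thbs2 and -3.01 for Tgfbi. For Tnc the changes have opposite signs, and for the other 5 both are positive.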

How the results depend on the processing

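No paired analysis was possible because the tables hold 0 columns of values per sample, and for the same reason no replicate could be left out and no count test or other normalisation was run. Of 198 values of single members recomputed under the alternatives, 187 kept their direction and their side of the threshold. Testing against a change of at most 1 log2 unit left 3 members called in iPSC-OB against iPSC (Postn, Ctgf and Sparc) in place of 7, and took away the Fn1 call in sorted cells. That setting also left 4118 rises and 2483 falls over all genes in ESC-OB, 4407 and 3164 in sorted cells, and 1535 and 1100 in iPSC-OB, against 7022 and 5651, 7273 and 6018, and 4596 and 4053. Centring on the median gene turned Fn1 to -0.0112 in iPSC-OB and -0.0265 in ESC-OB, and in the sorted minus unsorted difference Thbs1 to -0.0282 and Sparc to -0.0585, all uncalled. Taking part of the error as shared through ESC raised the called differences between sorted and unsorted cells to 3495 positive and 3493 negative, against 2107 and 2392, because the errors are smaller by construction. Taking 2 iPSC libraries changed only the number of libraries in the level estimate and took out no reads. It moved the 45 estimated levels by factors of 0.814 to 1.11, and cannot show what the unlabelled library adds. Under it 6 levels left the ranges given for them. In iPSC-OB these were Sparc (7821 CPM), Ctgf (2069 CPM), Thbs1 (1532 CPM), Postn (320 CPM) and Thbs2 (118 CPM). In iPSC it was Tnc (357 CPM). Scaling each group to its own total, chosen after seeing the data, moved the levels by 0.943 to 1.05. Depth limits Postn and Tnc in ESC, at 0.236 and 0.358 CPM against a floor of 0.108 CPM, which covers counting error only.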

Other observations

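Of the 78 listed companion genes, 4 were called in opposite directions in the cell sources, as Tnc was among the members, and they were picked out after their values were seen. The share of all genes called in opposite directions was not counted, so this number is no result about the lists. Thbs3, a thrombospondin of skeletal tissue, was at -1.19 ± 0.35 in iPSC-OB and 1.83 ± 0.29 in ESC-OB in the authors' deposited tables. Skil, which encodes the TGF-beta antagonist SnoN, was at -2.09 ± 0.20 in iPSC-OB and 1.08 ± 0.26 in ESC-OB in the authors' deposited tables. Srf, the serum response factor gene, was at -0.88 ± 0.37 in iPSC-OB and 0.82 ± 0.18 in ESC-OB in the authors' deposited tables. Tead4, a TEAD family gene, went the other way, at 1.71 ± 0.42 in iPSC-OB and -1.05 ± 0.26 in ESC-OB in the authors' deposited tables. In levels, which carry no test across the fits, Thbs3 stood at 31.3 CPM in iPSC against 4.10 CPM in ESC, and Skil at 392 CPM in iPSC against 77.0 CPM in ESC. Srf stood at 117 CPM in iPSC against 58.7 CPM in ESC, and Tead4 at 13.7 CPM in iPSC against 53.5 CPM in ESC.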
